A study of Mus musculus with 8 samples.

Results

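Krt8, Prph and Cryab encode keratin 8, peripherin and alphaB-crystallin: a pair of intermediate filament proteins and a small heat shock protein that chaperones such filaments. They were the annotated genes of 4 probes, 1 each for Krt8 and Prph and 2 for Cryab, out of 20355 probes and 9930 named genes on a mouse cDNA array. The genes had been picked because their ratio between the cell lines was among the most extreme in an earlier analysis of the same arrays without nocodazole replicate 1. The line ratios below are therefore a description and carry no test, and the change of the ratio with nocodazole is what was tested. That test is not free of the choice either, because its fit includes the arrays on which the genes were picked.

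Each array measured the ratio between RNA from HM-1 and RNA from R1, both mouse embryonic stem cell lines, on 4 arrays of cells given nocodazole and 4 arrays of untreated cells. Nocodazole takes microtubules apart and stops cells in mitosis. No dose, exposure time or passage was given in the labels used here. The protocol texts speak of organs and of a reference pooled from control animals, which the sample labels do not; the labels were followed. The labels do not tell whether replicates are separate cultures, so the spread behind each p-value is that of these arrays and may be technical. HM-1 was labelled with Cy5 on nocodazole replicates 1, 2 and 3 and on untreated replicates 1 and 2, and with Cy3 on nocodazole replicate 4 and untreated replicates 3 and 4. That is 37.5% of the arrays in the swapped orientation, where the design text gives 50%.

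All values are log2 ratios with each array's median set to 0 and the sign of the deposited table. Which line is the numerator is not settled by the sources used here, so a negative value means a difference between the lines in 1 direction and no line is called higher. Ratios carry no level, so neither the abundance of a transcript nor the presence of stem cell markers could be checked. Arrays held 17964 to 19342 values with nocodazole and 17759 to 18053 untreated. The standard deviation over probes was 1.28 on nocodazole replicate 3 and 0.78 to 0.91 on the other arrays. In such bulk RNA, fewer cells of a type and less RNA per cell cannot be told apart.

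Intermediate filaments are built from coiled-coil proteins that pair, bundle into rope-like fibres and give cells mechanical strength. Keratin 8 is a type II keratin that pairs with a type I keratin, usually keratin 18, and both are early keratins of the embryo, found in trophectoderm, endoderm and simple epithelia. Peripherin is a type III filament protein known mainly from peripheral neurons. AlphaB-crystallin keeps unfolding proteins soluble without using ATP, is abundant in lens, heart and skeletal muscle, and binds assembling filaments such as desmin, vimentin and GFAP.

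In the mouse RefSeq table Krt8 and Prph lie on chromosome 15 and Cryab on chromosome 9. The promoter windows of Krt8 and Prph, 250 bases before to 50 bases after the annotated start, are shown because both genes had ratios of like size on the same arrays. Sequences are from RefSeq, build GRCm38.p6, at chr15:102004293-102004592 on the minus strand for Krt8 and chr15:99054924-99055223 on the plus strand for Prph, and capitals mark matches to the TATA box letters TATAAA on either strand.
Krt8: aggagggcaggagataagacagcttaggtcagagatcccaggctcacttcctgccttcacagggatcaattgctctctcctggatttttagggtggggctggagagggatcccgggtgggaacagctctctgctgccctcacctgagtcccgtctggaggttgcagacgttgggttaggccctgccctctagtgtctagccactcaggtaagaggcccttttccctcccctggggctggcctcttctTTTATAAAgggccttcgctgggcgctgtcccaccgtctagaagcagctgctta
Prph: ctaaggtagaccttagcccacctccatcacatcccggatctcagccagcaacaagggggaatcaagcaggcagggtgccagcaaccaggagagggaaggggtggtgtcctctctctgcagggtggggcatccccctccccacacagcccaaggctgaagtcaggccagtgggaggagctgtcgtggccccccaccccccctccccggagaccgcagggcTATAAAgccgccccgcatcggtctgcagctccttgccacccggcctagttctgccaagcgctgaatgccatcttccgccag
The Krt8 window held TATAAA at base 250 of the window on the gene's strand, overlapping a match on the other strand at base 248, and the Prph window held it at base 220. Of 32851 promoter windows of this length, 13.6% held it. The heat shock element core GAANNTTC, present in 7.86% of windows, and the AP-1 letters TGANTCA, present in 7.81%, were searched on both strands and had no match in either window. The Sp1 letters GGGCGG, present in 35.7% of windows, matched once in the Prph window, at base 227 on the other strand. These matches describe letters, not binding. Of the 3 genes, Cryab had no entry in the promoter table.

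Keratin 8 had a negative ratio on 7 of the 8 arrays. Its log2 ratios were 1.40, -0.92, -1.27 and -1.16 on nocodazole replicates 1 to 4, and -0.67, -0.70, -1.20 and -1.34 on untreated replicates 1 to 4. The groups overlapped, because 3 of the nocodazole arrays lay inside the untreated range and the fourth, replicate 1, lay above it with the opposite sign. The means were -0.49 ± 1.27 with nocodazole and -0.98 ± 0.34 untreated (SD, n = 4 each). An untreated ratio of -0.98 is a 1.97-fold difference between the lines.

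Peripherin had the same signs. Its log2 ratios were 1.53, -1.30, -1.47 and -1.33 on nocodazole replicates 1 to 4, and -0.76, -0.85, -0.84 and -1.34 on untreated replicates 1 to 4. The groups overlapped: nocodazole replicates 2 and 4 lay between untreated replicates 2 and 4, replicate 3 was the lowest of the 8 arrays, and replicate 1 was again the single positive value. The means were -0.64 ± 1.45 with nocodazole and -0.95 ± 0.27 untreated (SD, n = 4 each).

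AlphaB-crystallin, averaged over its 2 probes, was at 1.18, -1.08, -1.58 and -1.07 on nocodazole replicates 1 to 4, and at -1.12, -0.85, -1.0045 and -1.16 on untreated replicates 1 to 4. The means were -0.64 ± 1.24 with nocodazole and -1.03 ± 0.14 untreated (SD, n = 4 each), and the groups overlapped. Its untreated arrays lay closer together than those of Krt8 or Prph. The 2 Cryab probes had the same sign on 8 of 8 arrays and differed in size. Probe 17462 was at 1.31, -1.41, -2.45 and -1.06 with nocodazole and at -1.56, -1.19, -0.99 and -1.34 untreated. Probe 1867 was at 1.05, -0.75, -0.72 and -1.08 with nocodazole and at -0.68, -0.51, -1.02 and -0.97 untreated. The difference between them was widest on nocodazole replicate 3, where probe 17462 was lower by 1.74 on the log2 scale, and the untreated mean was -1.27 ± 0.24 with probe 17462 and -0.80 ± 0.24 with probe 1867 (SD, n = 4 each).

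**Figure D1:**
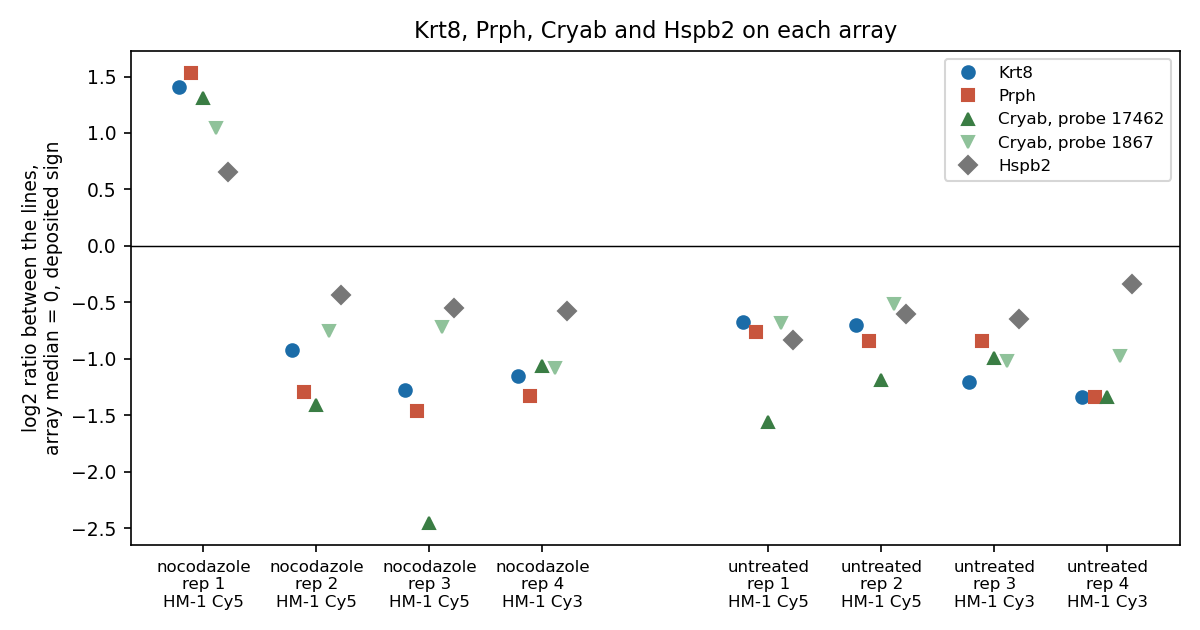
Log2 ratio between HM-1 and R1 (vertical axis, array median at 0, deposited sign) of the probes of Krt8, Prph, Cryab and Hspb2 on each of the 4 nocodazole and 4 untreated arrays (horizontal axis, with the dye that HM-1 carried). Each point is 1 probe on 1 array; all 5 probes are above 0 on nocodazole replicate 1 and below 0 on the other 7 arrays.

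The 3 genes stood near 1 end of the ratio distribution on most arrays. Among 7488 named genes with a value on all 8 arrays, the mean over the 7 arrays other than nocodazole replicate 1 placed Prph 8th, Cryab 9th and Krt8 14th from the lowest. The members were chosen on these values, so the ranks show only how they were picked. All 3 were negative on the 4 untreated arrays, as were 8.09% of these genes. In limma 0% of features passed for the line ratio with nocodazole or over both conditions, and 2.91% and 5.59% had an unadjusted p under 0.05. On nocodazole replicate 1 alone they were at percentiles 99.2 for Prph, 99.0 for Krt8 and 98.6 for Cryab. On nocodazole replicate 4 the percentiles were 0.708, 1.22 and 1.47, and on nocodazole replicate 3, the array with the widest spread, 8.11, 9.88 and 7.12. A log2 ratio near -1.3 was therefore less extreme on replicate 3 than on replicate 4.

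On nocodazole replicate 1 the sign was turned and the size was kept or exceeded. Its value was 1.35 times the size of the 7-array mean for Krt8 (1.40 against -1.04), 1.36 times for Prph (1.53 against -1.13) and 1.05 times for Cryab (1.18 against -1.12). Of the 7488 genes, 255 were negative on those 7 arrays (3.41%), and 236 were also positive on replicate 1 (3.15%). With the further conditions of a mean under -0.5 over the 7 arrays and a value above 0.5 on replicate 1 there were 35 genes (0.467%), the members among them. The rule that picked the members used the 7 arrays, so nothing is read from their place in these counts.

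**Figure D2:**
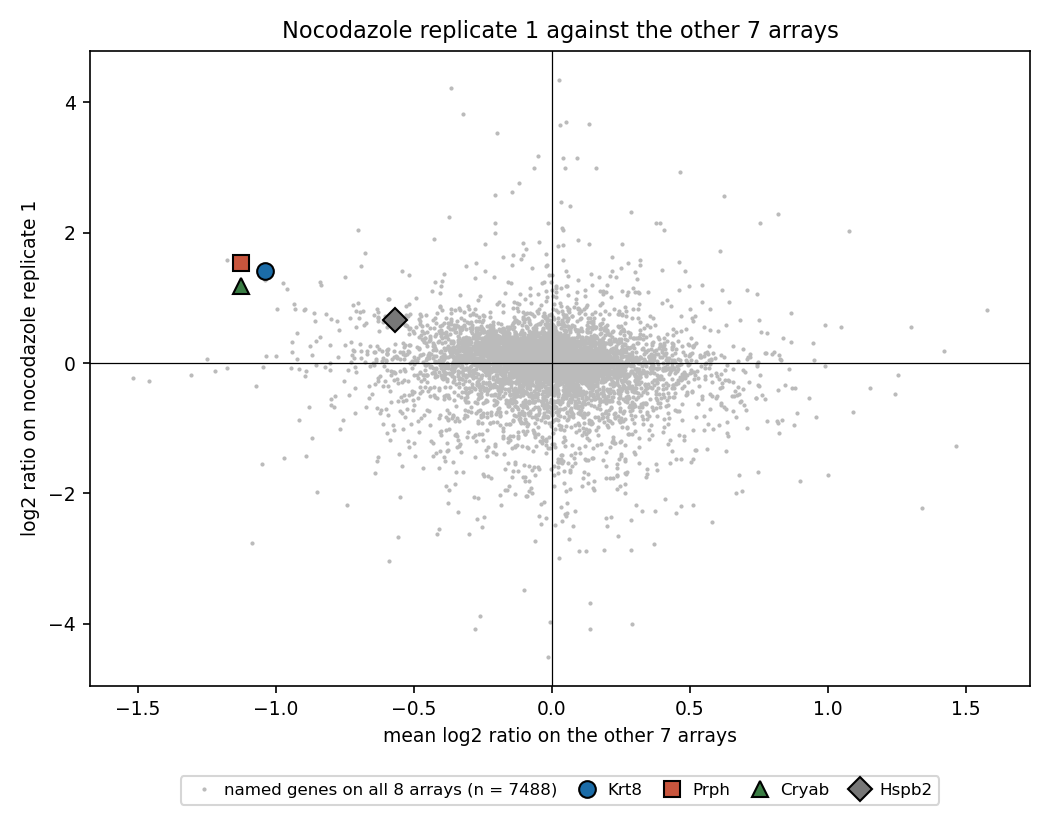
Log2 ratio on nocodazole replicate 1 (vertical axis) against the mean log2 ratio on the other 7 arrays (horizontal axis) for 7488 named genes, with Krt8, Prph, Cryab and Hspb2 marked. The 3 members lie near -1.1 on the horizontal axis and between 1.18 and 1.53 on the vertical axis, and Hspb2 lies at -0.57 and 0.65.

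The values of the 4 member probes did not have the form seen for very dim spots. A spot whose signals are small whole numbers gives a ratio of whole numbers up to 10, and 11.03% to 17.4% of the values of a nocodazole array and 12.8% to 19.4% of those of an untreated array had that form (tolerance 0.0015 on the log2 scale). Of the 32 member values 0 did, and 0 were the code for a denominator of 0. Part of the other values match by chance, so the shares are upper limits for dim spots.

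The change of the line ratio with nocodazole was not resolved for any member. The fitted change, nocodazole minus untreated with a term for the dye label, was 0.31 for Krt8 (SE 0.60, 95% interval -1.13 to 1.75), 0.17 for Prph (SE 0.71, -1.53 to 1.86) and 0.32 for Cryab (SE 0.61, -1.16 to 1.79). The adjusted p was 0.997 for each in limma, and 0 of 3 passed, where 0% of 14015 features did (467 features, 3.33%, had an unadjusted p under 0.05). The intervals reach beyond a log2 change of 1 on both sides, so changes of that size could not be seen with these arrays. Treated and untreated cells never shared an array, and the value is a change of the ratio between lines, not a response of either line. The fit joins the arrays on which the members were picked with the array left out of the picking. Its outcome is therefore not independent of the choice of members.

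The sign of these changes depended on nocodazole replicate 1. Without it the fitted change was -0.20 (SE 0.18) for Krt8, -0.44 (SE 0.19) for Prph and -0.20 (SE 0.20) for Cryab, with an adjusted p of 0.988 for each in limma. With the sign of that array turned the changes were -0.29 (SE 0.19), -0.49 (SE 0.17) and -0.19 (SE 0.17), with an adjusted p of 0.99. Prph was the lowest of the members in both cases, with an unadjusted p of 0.06 without the array and 0.0271 with its sign turned. Under both settings 0 features passed for this contrast, with 476 and 488 at an unadjusted p under 0.05.

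**Figure D3:**
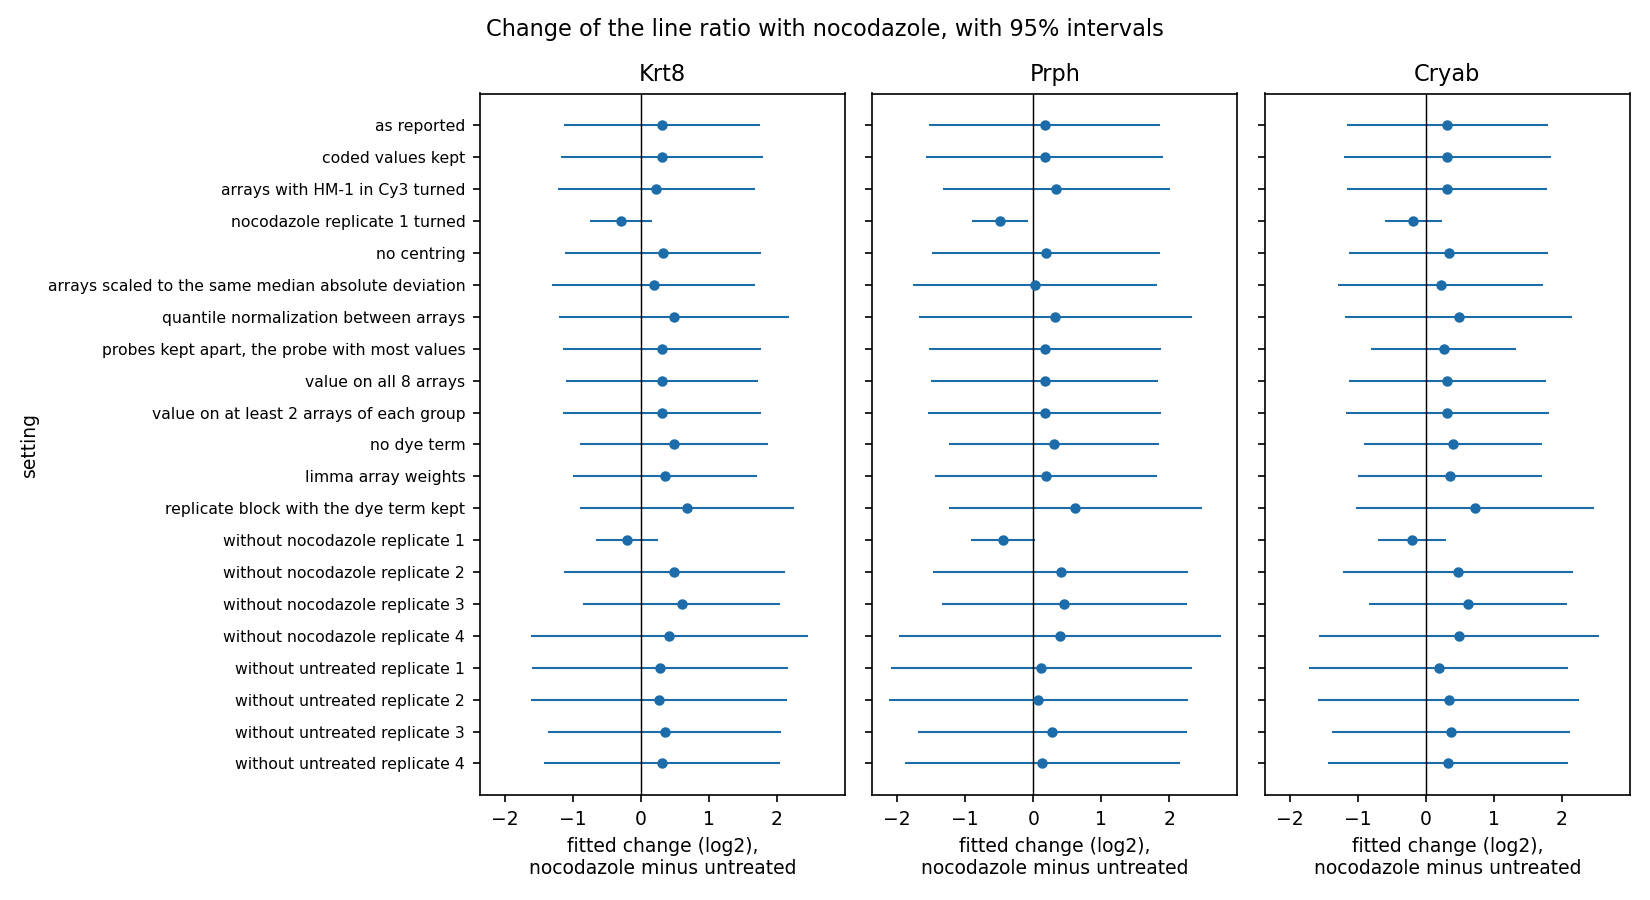
Fitted change of the line ratio, nocodazole minus untreated, in log2 units (horizontal axis) for Krt8, Prph and Cryab as reported and under each of 20 alternative settings (vertical axis). Points are limma estimates and bars 95% intervals; the estimate is below 0 for each gene only without nocodazole replicate 1 or with that array turned, and the bars are then narrower.

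The sign of the line ratio also depended on whether the arrays with HM-1 in Cy3 were turned from their deposited sign. Kept as deposited, members were negative on all 3 arrays with HM-1 in Cy3 and on 4 of the 5 with HM-1 in Cy5. The code that stands in the table for a denominator of 0 carried a minus sign on the 3 arrays labelled in the swapped orientation and a plus sign on the other 5. A minus sign there is what a table already turned on those 3 arrays would hold. If so, turning them again undoes that step, and the means below are not an equal reading. The sources used here do not state whether the arrays were turned before deposit. With the 3 arrays of HM-1 in Cy3 turned, the means became 0.09 with nocodazole and 0.29 untreated for Krt8, 0.02 and 0.14 for Prph, and -0.10 and 0.05 for Cryab. Each mean then lay well inside its spread, which was 1.38 and 1.13 for Krt8. In untreated cells under the deposited signs, Krt8 averaged -0.69 on the 2 arrays with HM-1 in Cy5 and -1.27 on the 2 with HM-1 in Cy3. Prph averaged -0.81 and -1.09 on the same arrays and Cryab -0.99 and -1.08. The fitted dye term, Cy5 minus Cy3, was 0.72 for Krt8 (SE 0.62, adjusted p = 0.755), 0.56 for Prph (SE 0.73, adjusted p = 0.841) and 0.30 for Cryab (SE 0.64, adjusted p = 0.902). Without nocodazole replicate 1, an array with HM-1 in Cy5, the terms were 0.37 (SE 0.18), 0.15 (SE 0.19) and -0.05 (SE 0.20) in the same order. For the dye label 0% of features passed in limma, and 9.16% had an unadjusted p under 0.05.

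Hspb2, a small heat shock protein of muscle, is the annotated neighbour of Cryab on chromosome 9, and in the RefSeq table it lies within the span annotated for Cryab. Its ratios were 0.65, -0.43, -0.55 and -0.57 on nocodazole replicates 1 to 4, and -0.83, -0.60, -0.64 and -0.34 on untreated replicates 1 to 4. These are the signs of Cryab on 8 of 8 arrays, with a smaller size than the Cryab mean on each, and the groups overlapped. The means were -0.23 ± 0.59 with nocodazole and -0.60 ± 0.21 untreated (SD, n = 4 each). Hspb2 was not used to choose the members, but its list was chosen with earlier results of these data known, so its values are a description. In limma its untreated line ratio had an unadjusted p of 0.0325 and an adjusted p of 0.755, where 0% of features passed and 6.33% had an unadjusted p under 0.05. Over the 8 arrays Cryab and Hspb2 had r = 0.91 and rho = 0.02, and r = -0.13 without nocodazole replicate 1. Whether the Hspb2 probe also binds Cryab transcripts was not tested.

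The other small heat shock proteins did not share the signs of Cryab. Of 8 besides Cryab on the array, 7 had values on all arrays, and Hspb2 was the 1 gene negative on the 7 arrays and positive on nocodazole replicate 1. Over all named genes with values on all arrays, 3.15% had these signs. Cryaa, the lens partner of Cryab, averaged -0.10 ± 0.47 with nocodazole and 0.13 ± 0.19 untreated (SD, n = 4 each). Hspb1, the broadly expressed small heat shock protein of stress, averaged -0.27 ± 0.69 and 0.17, with values of both signs in each group. Hspb6 lay between -0.20 and 0.08 with nocodazole and between -0.24 and 0.17 untreated. Hspb7, Hspb8 and Odf1 also had both signs in each group.

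Among keratins, 19 besides Krt8 were on the array and 10 of these had values on all arrays. None of the 10 was negative on the 7 arrays. Over all named genes with values on all arrays 3.41% were, and none among so few genes is near that share. The median of the 10 lay between -0.03 and 0.17 on the nocodazole arrays and between -0.04 and 0.24 on the untreated arrays. Krt18, the usual partner of keratin 8, had a value on 4 arrays, 0.45 and 0.64 on nocodazole replicates 1 and 4 and 2.47 and 0.37 on untreated replicates 2 and 3. All were positive, 2 of the 4 had the form of a ratio of small whole numbers, and the gene was not tested. Krt19 and Krt7, keratins of simple epithelia, had 3 values each, with both signs. The epidermal keratins varied: Krt5 was at 0.09 ± 0.08 with nocodazole and -0.0020 ± 0.18 untreated, Krt17 at 0.06 ± 0.23 and -0.07 ± 0.15, Krt10 at -0.05 ± 0.28 and 0.36 ± 0.63, and Krt15 at 1.17 ± 2.27 and 0.02 ± 0.29 (SD, n = 4 each). Krt16 had 5 values, from -0.50 to -0.03 with nocodazole and from -2.002 to 2.36 untreated. Keratin genes are alike in sequence, and whether the Krt8 probe binds other keratin transcripts was not tested.

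Of the other intermediate filament genes, 13 besides Prph were on the array and 9 had values on all arrays. None of the 9 was negative on all 7 arrays, which for so few genes is near the 3.41% of all named genes with values on all arrays. Vim, the type III filament of mesenchyme, was at 0.32, -0.32, -0.14 and -0.30 with nocodazole and 0.02, -0.15, -0.25 and -0.48 untreated. Its mean over the 7 arrays was -0.23, against -1.13 for Prph. The lamin gene Lmnb2 averaged -0.12 ± 0.20 with nocodazole and -0.20 untreated, and Lmnb1 lay between -0.21 and 0.09 on every array. Of the neural filaments, Nes averaged 0.04 ± 0.13 with nocodazole and -0.06 ± 0.15 untreated, and Ina 0.04 ± 0.12 and -0.18 ± 0.44 (SD, n = 4 each), with -0.81 on untreated replicate 1. The neurofilament genes Nefm and Nefh had 5 and 4 values and Des had 4, and they were not tested. Bfsp2, a lens filament gene, was at -3.09 to 0.49 with nocodazole and -1.61 to 2.52 untreated and was negative on every array with HM-1 in Cy5 and positive on every array with HM-1 in Cy3 (dye term -2.92, SE 0.64, adjusted p = 0.442 in limma).

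Over the 3 families, 30 of 40 genes other than the members were tested for the change with nocodazole in limma. None passed, and 0 had an unadjusted p under 0.05, where 3.33% of all features did. The median fitted change was -0.06. Of the 26 genes with values on all arrays, 23 had a mean within 0.5 of 0 over the 7 arrays, and the range ran from -0.57 for Hspb2 to 0.69 for Krt15, whose mean rests on a value of 4.57 on nocodazole replicate 2.

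**Figure D4:**
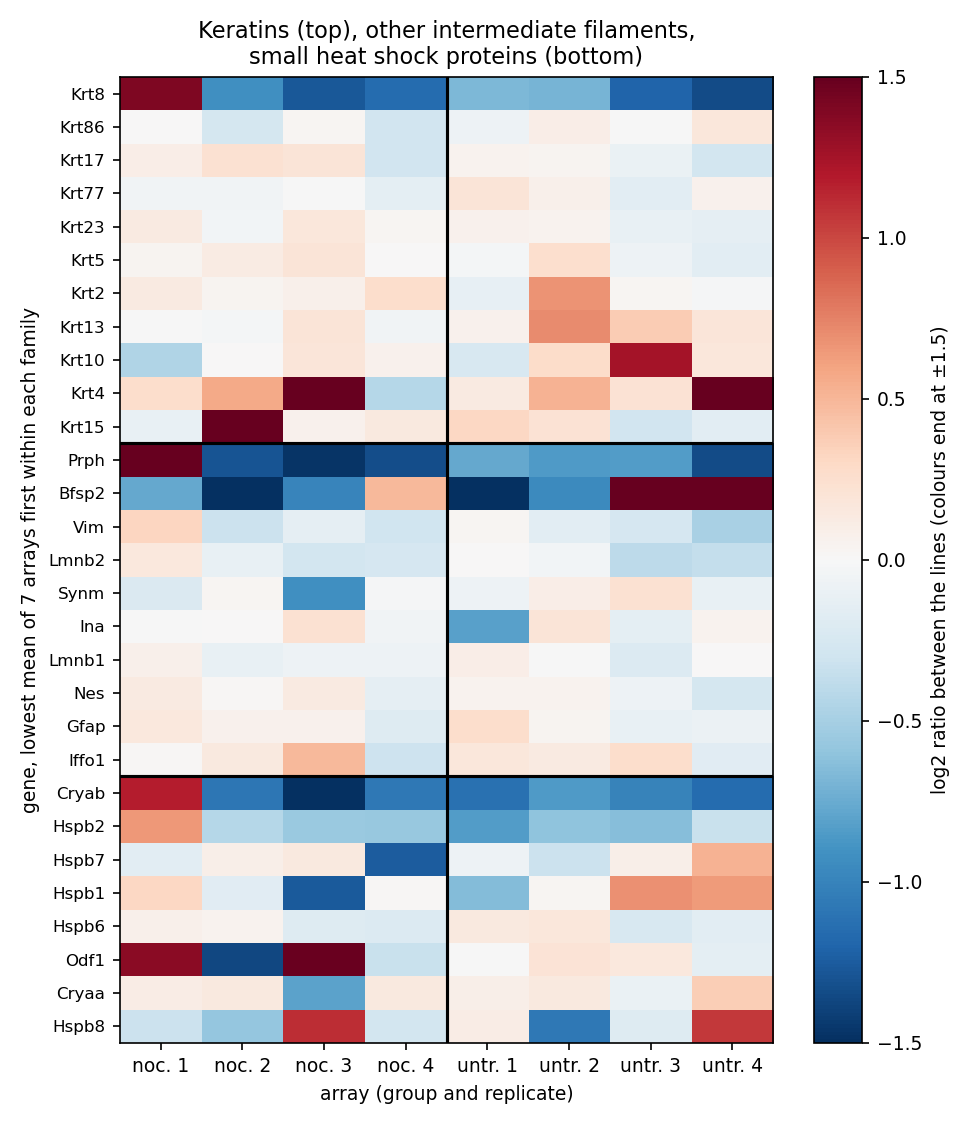
Log2 ratio between the lines (colour, ending at ±1.5) of the 11 keratins, 10 other intermediate filament genes and 8 small heat shock proteins with a value on all 8 arrays (rows), on the 4 nocodazole and 4 untreated arrays (columns). Krt8, Prph, Cryab and Hspb2 are the rows that are red on nocodazole replicate 1 and blue on all other arrays.

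Proteins that anchor or turn over filaments were also set beside the members. Of 6 such genes on the array, none was negative on all 7 arrays, where 3.41% of all named genes with values on all arrays were. Plec, the plectin that ties filaments to other structures, averaged -0.34 ± 0.98 with nocodazole and -0.20 ± 0.32 untreated, and Pkp4, a junction plaque protein, -0.45 ± 1.03 and 0.0076 ± 0.10 (SD, n = 4 each). Bag3, a co-chaperone that works with small heat shock proteins, averaged 0.32 ± 0.73 with nocodazole and 0.12 ± 0.29 untreated, and the plakophilin gene Pkp1 0.29 ± 0.92 and 0.23 ± 0.65 (SD, n = 4 each). In the heat shock response list, 0 of 9 genes on all arrays were negative on the 7 arrays, again near the share of 3.41%. Its median lay between -0.07 and 0.21 with nocodazole and between -0.09 and 0.28 untreated. For the change with nocodazole, 0 of its 10 tested genes passed in limma, where 0% of all features did. An unadjusted p under 0.05 in limma was found for 3.33% of all features and for 2 genes of the list. These were Hspa4, at -0.62, 0.71, 0.01 and -1.02 on nocodazole replicates 1 to 4 and 1.41, 0.44, 0.68 and 2.07 untreated (change -1.43, SE 0.53, unadjusted p = 0.033, adjusted p = 0.997 in limma), and Hspa1b, named after its values were seen (change -0.37, SE 0.15, unadjusted p = 0.0424, adjusted p = 0.997 in limma). By the mean over 8 arrays the lowest was the chaperonin gene Hspe1, at -0.09 ± 0.38 with nocodazole and -0.17 ± 0.49 untreated, and the highest was Hmox1, heme oxygenase 1, at 0.12 ± 1.63 and 1.07 ± 1.32 (SD, n = 4 each). The Hmox1 values also differed by dye label (dye term -2.25, SE 0.63, unadjusted p = 0.0102, adjusted p = 0.446 in limma).

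Markers of other cell types moved with the members to different degrees, and their part in the members' ratios was not tested. Of 15 endoderm genes other than Krt8 measured on all arrays, 5 were negative on the 7 arrays and positive on nocodazole replicate 1. These were Dab2, Sparc, Serpinh1, Pth1r and Ctsl, of which Pth1r and Ctsl are named after their values were seen, as is Thy1. Over all 7488 named genes with values on all arrays, 3.15% had these signs. The highest endoderm genes by the mean over 8 arrays were Amn and Hnf4a. Amn averaged 0.17 ± 0.50 with nocodazole and 0.06 ± 1.47 untreated. Hnf4a averaged -0.22 ± 1.17 and 0.28 ± 0.56 in the same order (SD, n = 4 each). It was at -1.665 on nocodazole replicate 1 and averaged 0.27 over the other 7 arrays. The median of the endoderm list was 0.65 on nocodazole replicate 1 and between -0.64 and -0.09 on the other 7 arrays. Of 12 feeder fibroblast genes 3 had the members' signs, Thy1, S100a4 and Thbs1. The list median was 0.19 on nocodazole replicate 1 and -0.42 to -0.09 elsewhere. Its highest genes by the mean over 8 arrays were Pdgfrb and Col5a2. Pdgfrb averaged 0.03 ± 0.24 with nocodazole and 0.04 ± 0.26 untreated. Col5a2 averaged 0.05 ± 0.06 and -0.07 ± 0.41 in the same order (SD, n = 4 each). Of 7 neuron genes other than Prph none had the members' signs. The median of the neuron list lay between -0.05 and 0.08 with nocodazole and -0.12 and 0.07 untreated. By the mean over 8 arrays Gap43 was the lowest of these, at -0.24 ± 0.39 with nocodazole and -0.20 ± 0.17 untreated (SD, n = 4 each). Of the trophectoderm genes other than Krt8, 2 had values on all arrays, Gata3 at -0.33 ± 0.20 with nocodazole and 0.05 ± 0.33 untreated and Ascl2 at 0.09 ± 0.14 and -0.05 ± 0.24 (SD, n = 4 each). Over all 7488 named genes the array medians lay between -0.03 and 0.03.

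The members' ratios varied together, but mostly through 1 array. Over 8 arrays, r was 0.97 between Krt8 and Prph (rho 0.83), 0.97 between Krt8 and Cryab (rho 0.64) and 0.97 between Prph and Cryab (rho 0.71). Over the 7 arrays without nocodazole replicate 1, r was 0.68, 0.52 and 0.64 for the same pairs. The points share arrays, dye label and centring, and these values are a description.

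The genes most like the members were found among the named genes on all 8 arrays. By r over the 8 arrays, the nearest to Krt8 were Anxa2, Serpinh1, Ruvbl2, Apoe and Myo1c (r = 0.98 to 0.99). Anxa2, a membrane-binding annexin, kept r = 0.94 with Krt8 over the 7 arrays. The nearest to Prph were Actc1, Sparc, Lgals3, Myo1c and Shkbp1 (r = 0.97 to 0.996). Actc1, the cardiac actin gene, kept r = 0.95 over the 7 arrays at a smaller size, with a mean of -0.42 there. The nearest to Cryab were Thbs1, Txndc2, Akt2, Shkbp1 and Pou2af1 (r = 0.97 to 0.98), and over the 7 arrays these had r between 0.46 and 0.84. Txndc2 and Shkbp1 had 7-array means of 0.09 and 0.05 and values of 3.14 and 2.99 on nocodazole replicate 1; their r over the 7 arrays was 0.46 with Cryab for Txndc2 and 0.69 for Shkbp1.

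By the mean absolute difference over 8 arrays, the genes nearest to the mean of the 3 members were Sparc, Dab2, Spink1, Serpinh1 and Clu. The differences were 0.19 to 0.31 on the log2 scale, a measure of distance and not of shape. Their r with the mean of the 3 members was 0.92 to 0.97 over 8 arrays. Over the 7 arrays without nocodazole replicate 1, r was 0.60, 0.27, 0.24, 0.47 and 0.24 in the order named. Sparc is a matrix glycoprotein, Dab2 an endocytic adaptor, Spink1 a trypsin inhibitor, Serpinh1 a collagen chaperone and Clu an extracellular chaperone. On nocodazole replicate 1 they lay between 1.14 and 1.27, and over the 7 arrays their means lay between -1.04 and -0.83. By the mean absolute difference Hspb2 was 25th.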

How the data were processed

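RNA of 8 two-colour cDNA arrays was analysed from the deposited table of log2 ratios, 1 per probe and array. The software, background correction and normalization behind the deposited log2 values were not given in the sources used here, and no intensities were analysed. The code for a denominator of 0 (a ratio of 100000 plus 1 offset per array) was set to missing, each array was centred on its median, and probes of 1 symbol (14030 probes, platform annotation) were averaged. Features needed values on 3 or more arrays in both groups, which left 14015 of 16255. limma 3.58.1 in R 4.3.3 was fitted over all 8 arrays with a coefficient per group and a dye term, Benjamini-Hochberg adjustment over all features and a threshold of 0.05. Standard errors of contrasts were computed exactly for features with missing values. The script was tested on simulated data. The members, gene lists and alternatives were chosen with earlier results of these data known. Named were the members, measured genes of the 3 families, at most 2 highest and 2 lowest genes of other lists, and the 5 nearest genes by each measure of likeness; Pth1r, Ctsl, Thy1 and Hspa1b fall outside this rule. The number of arrays limits the precision.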

Additional observations from a re-analysis of the deposited data

Results flagged for a closer look

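By Dixon's ratio, 17 of 102 groups of 4 arrays had 1 array apart from the other three, a limit that chance passes in about 1 of 20 groups. That share is no yardstick for this count. The members were picked on the 7 arrays without nocodazole replicate 1. The 11 flagged genes near them were picked by their likeness over all 8 arrays. Anxa2, Ruvbl2, Shkbp1, Thbs1 and Pou2af1, also among the nearest genes, were not flagged. Of the 17, 14 concern nocodazole replicate 1. Members stood apart there with Krt8 at 1.4 (others -1.27 to -0.92) and Prph at 1.53 (others -1.46 to -1.30). Hspb2 stood apart at 0.65. Among the genes nearest to the members, Serpinh1 was at 1.25, Sparc at 1.23, Dab2 at 1.27, Spink1 at 1.14, Clu at 1.2, Apoe at 0.51, Myo1c at 0.59, Actc1 at 0.76, Lgals3 at 0.75, Txndc2 at 3.14 and Akt2 at 0.48 on that array. Cryab, at 1.18 against -1.58 to -1.07, did not pass the limit there. Elsewhere, Prph was at -1.34 on untreated replicate 4 (others -0.85 to -0.76), Krt15 at 4.57 on nocodazole replicate 2 and Cryaa at -0.81 on nocodazole replicate 3.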

How the results depend on the processing

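The count of features past the threshold in limma was 0 for every contrast, and remained 0 in the 20 alternatives for the change with nocodazole and for the untreated line ratio; for the change, 341 to 693 features had an unadjusted p under 0.05. It became 1 for the line ratio with nocodazole when that replicate 1 was turned or when values on all 8 arrays were required, 37 over both conditions with replicate 1 turned, and 1 for the dye term with array weights. With single arrays left out all counts were 0. The fitted change with single arrays left out ranged from -0.20 to 0.60 for Krt8, -0.44 to 0.46 for Prph and -0.20 to 0.63 for Cryab, below 0 only without nocodazole replicate 1. It was also below 0 with that array turned (-0.29, -0.49 and -0.19 in the same order). The other 18 alternatives kept its sign for each gene, and it was lowest with arrays scaled to 1 spread, at 0.02 for Prph. The labels do not tell whether equal replicate numbers pair the samples. Deviations of same-numbered arrays from their group mean had r of 0.13, 0.02, -0.05 and 0.09, and 2 of the 4 nocodazole arrays correlated best with another number. The dye label also differs among these arrays, so the correlations cannot decide whether the numbers pair the samples. With the replicate block the change was 0.68, 0.62 and 0.72 for Krt8, Prph and Cryab, with 0 features past the threshold, and the dye terms were -0.75, -1.24 and -1.30. Only the arrays numbered replicate 3 differ in dye label between the groups. With the block the dye terms therefore rest on those arrays alone, and the change rests on replicates 1, 2 and 4. The sign of these dye terms is not read. Turning the arrays of HM-1 in Cy3 gave dye terms of -1.73, -1.83 and -1.85 and mean ratios of 0.0902 and 0.29 (Krt8) and 0.0245 and 0.14 (Prph) with nocodazole and untreated, and 0.048 (Cryab) untreated. The Cryab dye term was -0.0349 with nocodazole replicate 1 turned and between -0.0464 and 0.51 with single arrays left out. Quantile normalization moved the untreated means to -1.32, -1.26 and -1.32, and the Cryab mean was -0.80 with probe 1867 alone. Without single arrays the nocodazole means ranged from -1.12 to -0.23, -1.37 to -0.37 and -1.24 to -0.32, and the untreated means from -1.08 to -0.86, -1.01 to -0.82 and -1.09 to -0.99. Beyond what the dye labels fix in the replicate block, the cause of these shifts was not tested.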

Other observations

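Tissues in which alphaB-crystallin is abundant were set beside the members as well. Of 9 muscle and lens genes other than Cryab with values on all arrays, Actc1 alone had the members' signs. Over all named genes with values on all arrays, 3.15% had them. The list median was -0.19 on nocodazole replicate 1 and between -0.16 and 0.03 on the other 7 arrays. The lens crystallin Crygs averaged 0.02 ± 0.36 with nocodazole and 0.07 ± 0.44 untreated, and the ventricular myosin light chain Myl2 -0.67 ± 1.36 and 0.02 ± 0.25 (SD, n = 4 each). Of 9 pluripotency genes on all arrays none had the members' signs. Their median lay between -0.08 and 0.08 with nocodazole and between 0.02 and 0.34 untreated. By the mean over 8 arrays Lefty1 was among the 2 highest, at 0.38 ± 0.31 with nocodazole and 0.48 ± 0.21 untreated, and Sall4 was the lowest by that mean, at 0.17 ± 0.21 and -0.18 ± 0.38 (SD, n = 4 each).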
